A study of Mus musculus with 6 samples.

Results

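The 10 helix-loop-helix genes followed through these peak lists were Hes1, Hes5, Hes6, Hey1, Id1, Id2, Id3, Id4, Olig1 and Olig2. They were chosen by name, as factors that hold progenitors or set glial fate, with earlier results of these data known. Their counts beside those of all genes are therefore descriptions. A peak belonged to a gene when the deposited annotation gave that symbol as the nearest gene. This held for 39 of the 97783 peaks in 6 lists, and for 9 of the 10 genes. Chromatin immunoprecipitation followed by sequencing had been done on neural stem cells grown from the cortex of mice at postnatal day 0, in medium with EGF and bFGF at 20 ng/ml each. Chd4, the ATPase of the NuRD (nucleosome remodelling and deacetylase) complex, was the target in 4 libraries. These were iKO (genotype mutant, 4-OH-TAM in the medium), Ctrl (wild type, growth medium), siSeh1 (labelled wild type, growth medium) and siSCR (wild type, growth medium). Seh1, a nucleoporin, was the target in Seh1-flag (titled iKO, labelled wild type, 4-OH-TAM in the medium) and in Seh1 Ctrl (wild type, growth medium). These abbreviations are not explained in the labels. They are taken here to mean that Seh1 was deleted in iKO and silenced in siSeh1, with siSCR as the matching control. The sources used here name neither the allele and Cre of iKO nor how the tagged protein was supplied. The header of the Seh1-flag list names its source with the letters oe, which are not explained. It is therefore not known if the tagged protein was in excess or if native Seh1 was still present, and every Seh1-flag value carries that limit.

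Each group had 1 library, so no difference below has a replicate check and no p-value is given. The lists held 21294 peaks in Chd4 iKO, 1154 in Chd4 Ctrl, 26935 in Chd4 siSeh1, 2606 in Chd4 siSCR, 24961 in Seh1-flag and 20833 in Seh1 Ctrl. The depth of each library is unknown. A gene can be missing from a short list because fewer peaks passed there, and list length and condition cannot be told apart in these data. Peak lists measure no RNA, so neither the deletion nor the silencing of Seh1 could be checked in them. As a check on the labelled cell type, 32 markers of neural stem cells, neurons, glia, microglia and endothelium were looked up. Promoter peaks lay at Sox2 and Sox10 in siSeh1 and at Prom1 in Seh1 Ctrl, and at 0 of the 32 in the other 4 lists, so the lists do not tell which cells were present.

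Hes and Hey proteins are repressors. Hes1, Hes5 and Hey1 are switched on by Notch signalling and keep progenitors undifferentiated by silencing proneural genes, while Hes6 in mouse counters Hes1 and favours neuronal differentiation. Id proteins lack a DNA-binding region, pair with E proteins and so keep proneural factors from DNA; they are targets of BMP signalling. Olig1 and Olig2 are DNA-binding factors of the oligodendrocyte lineage, and Olig2 is also made in dividing progenitors.

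Chd4 was listed at the promoters of 3 of the 10 genes in iKO (Hes1, Id2 and Olig1) and of 0 in Ctrl. It was listed at 7 in siSeh1 (Hes1, Hes6, Hey1, Id2, Id4, Olig1 and Olig2) and at 1 in siSCR (Id2). Peaks counted as promoter peaks when no more than 1 kb separated them from the nearest annotated transcription start site. Over all 21900 protein-coding genes the share with such a peak was 5.18% in iKO, 0.0183% in Ctrl, 11.8% in siSeh1 and 1.63% in siSCR. These shares were not matched for base composition. With that share in Ctrl, a count of 0 among 10 genes is near the background and says nothing about these genes. Neither Seh1 list had a promoter peak at any of the 10 genes, beside 1.33% of protein-coding genes in Seh1-flag and 1.02% in Seh1 Ctrl, or 2.33% in either. These counts too are near the background.

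**Figure D1:**
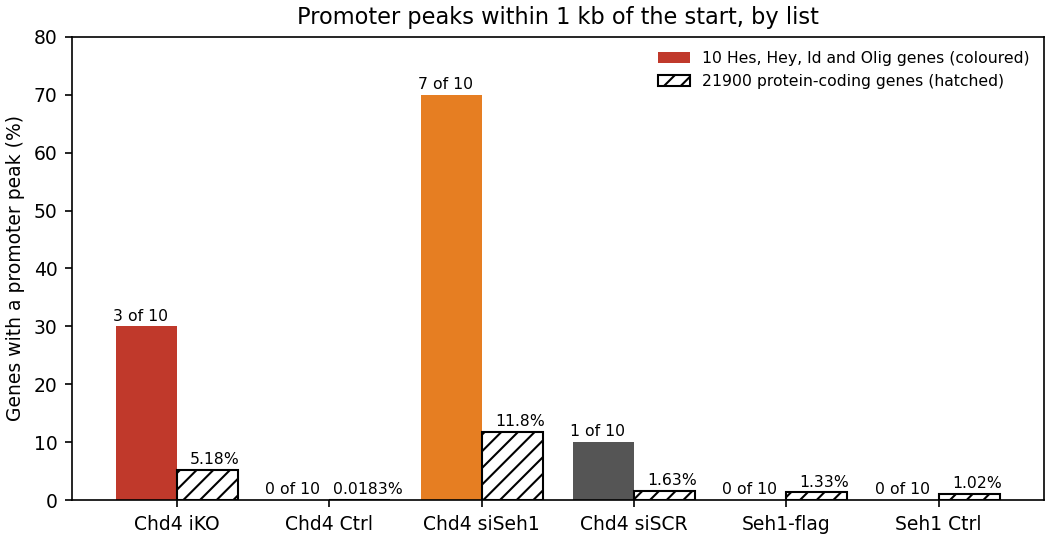
Percentage of genes with a peak within 1 kb of the start in each of the 6 lists, for the 10 Hes, Hey, Id and Olig genes (coloured bars, with counts) and for 21900 protein-coding genes (hatched bars). The coloured bar is tallest in Chd4 siSeh1 at 7 of 10, against 11.8% of protein-coding genes, and 3 lists had 0 of 10.

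The promoter windows of Id2, Id4 and Olig2 are shown, where Chd4 summits lay 3 to 17 bp from a short motif. That of Id3, which had no summit, is shown beside them. Those of Hes6, where the summit lay 61 bp from the motif, and of Hes5, with the motif and no summit, are not shown. Each window is the 250 bases just before the annotated start, read from RefSeq (GRCm38.p6, the assembly of build mm10) in the direction of the gene. Capitals mark CCAAT or its reverse complement ATTGG. Id2 (chr12:25096093-25096342, minus strand) held 3 such boxes, Id4 (chr13:48260866-48261115, plus strand) 2 and Olig2 (chr16:91225300-91225549, plus strand) 2. Id3 (chr4:136143572-136143821, plus strand), with no promoter peak in any list, held 0.
Id2: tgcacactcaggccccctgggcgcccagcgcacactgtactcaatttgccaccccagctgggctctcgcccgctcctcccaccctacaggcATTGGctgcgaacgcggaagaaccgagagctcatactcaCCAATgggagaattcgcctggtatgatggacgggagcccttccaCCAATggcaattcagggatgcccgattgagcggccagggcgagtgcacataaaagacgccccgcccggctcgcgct
Id4: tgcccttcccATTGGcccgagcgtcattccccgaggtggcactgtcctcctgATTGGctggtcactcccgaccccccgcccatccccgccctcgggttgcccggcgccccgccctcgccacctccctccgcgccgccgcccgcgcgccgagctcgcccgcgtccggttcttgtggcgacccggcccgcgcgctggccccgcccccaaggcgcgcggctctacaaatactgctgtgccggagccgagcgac
Olig2: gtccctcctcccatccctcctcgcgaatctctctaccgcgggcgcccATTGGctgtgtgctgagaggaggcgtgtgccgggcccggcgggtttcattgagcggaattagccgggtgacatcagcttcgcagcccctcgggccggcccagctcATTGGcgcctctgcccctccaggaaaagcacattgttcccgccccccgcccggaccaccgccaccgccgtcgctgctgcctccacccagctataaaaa
Id3: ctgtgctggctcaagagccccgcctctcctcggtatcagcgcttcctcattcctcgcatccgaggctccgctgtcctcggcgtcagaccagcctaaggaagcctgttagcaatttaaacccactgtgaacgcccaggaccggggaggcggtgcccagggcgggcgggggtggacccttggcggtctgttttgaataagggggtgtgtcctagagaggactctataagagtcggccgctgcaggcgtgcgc

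In the Id2 window the Chd4 summit was 8 bp from the nearest CCAAT box in iKO, 7 bp in siSeh1 and 10 bp in siSCR. The siSeh1 summit was 3 bp from a box at Id4 and 17 bp from one at Olig2. At Hes6, whose window before the start at 91413222 also held 2 boxes, it was 61 bp away. Such distances were not computed over other windows, so it is not known whether these are short. The Hes5 window (chr4:154960673-154960922) held 2 boxes and no summit from any list. Unknown depth limits that absence, and whether a box is enough for a Chd4 peak was not tested. RefSeq windows were matched for 6 of the 10 genes, and Hes6 had a second one with 0 boxes and no summit. Hes1, Hey1, Id1 and Olig1 had no window. The promoter summits of Hes1, Hey1 and Olig1 are therefore not covered by this description.

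The same motif was counted in every window. One or more CCAAT boxes, on either strand, stood in 33.8% of all 32851 windows. Among windows that held a Chd4 summit the share was 86.1% in iKO (632 of 734, 95% interval 83.4 to 88.5%) and 76.5% in siSeh1 (1331 of 1741, 74.4 to 78.4%). The 7 windows read, from 6 of the 10 genes, were richer in G and C (62.8 to 75.6%) than the median window (52.4%), so the count was repeated within that range. There it was 85.7% of 329 windows with an iKO summit and 70.3% of 855 with a siSeh1 summit, against 23.4% of 5166 windows with no siSeh1 summit. These shares are descriptions: windows of 1 gene overlap, intervals cover counting error only, and a match is not a binding site. Of the 6021 windows in that range, 855 held a siSeh1 summit and 329 an iKO summit, beside 1741 and 734 of all 32851. Windows rich in G and C thus held Chd4 summits more often, while the promoter counts above were set beside all genes.

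Other short motifs were searched in the same windows. The GC box GGGCGG was found in the windows of Id2, Id3, Id4, Olig2 and the Hes6 start with a summit, beside 32.7% of all windows and 79.1% of those of the same base composition. Like CCAAT, it was more frequent where a summit lay. It stood in 73.3% of windows with an iKO summit and 75.6% of those with a siSeh1 summit. Within the same base composition these shares were 87.5% and 88.2%, against 77.6% of windows with no siSeh1 summit. The E-box CANNTG, which basic helix-loop-helix factors can bind, occurred in the windows of Id2 (1 time), Hes5 (1 time) and both Hes6 starts (1 time where the summit lay and 3 times at the other), and 0 times in those of Id3, Id4 and Olig2. It stood in 66.2% of all windows and in 51.6% of those of the same base composition. GTGGGAA, the core recognised by the Notch effector Rbpj, was found 2 times in the Hes5 window and 0 times in the others searched, beside 5.42% of all windows and 4.77% of those of the same base composition. CACNAG, a sequence that Hes proteins bind, was found 1 time each at Hes6 and Id4 (36.7% of all windows, 34.1% of those of the same base composition). TATAAA was found 1 time each at the same Hes6 start and at Olig2 (12.4% of all windows, 2.44% of those of the same base composition). All motifs were searched on both strands. In the windows of these genes 0 matches overlapped a CCAAT box, and 1 pair of GC boxes overlapped, at Id3.

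**Figure D2:**
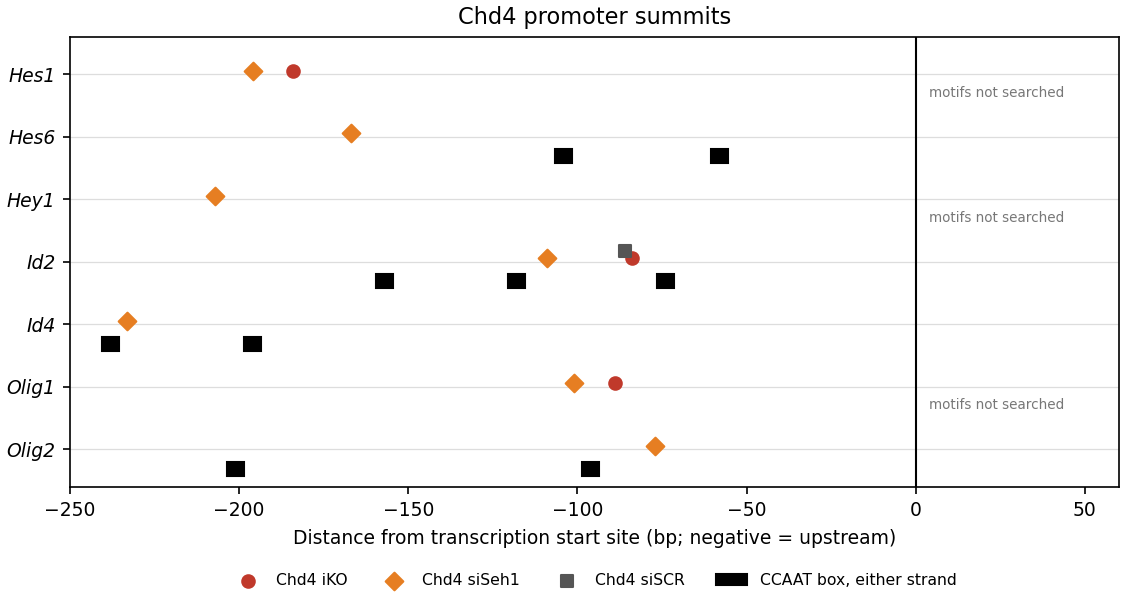
Position of each Chd4 promoter summit relative to the start (x axis in bp, negative upstream) for the 7 genes that had one, by list, with CCAAT boxes as black blocks where a RefSeq window was searched. All 11 summits lie upstream, between 77 and 233 bp from the start, and summits of different lists at Hes1, Id2 and Olig1 nearly coincide.

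The 11 promoter summits, at 7 genes, lay upstream of the start without exception, 77 to 233 bp from it. Id2 had a summit in 3 lists and Hes1 and Olig1 in 2 each, at nearly the same place, so the 11 are not separate sites. Of all promoter peaks, 67.1% lay upstream in iKO (64.4 to 69.7%), 68.7% in siSeh1 (66.9 to 70.4%) and 81.1% in siSCR (76.8 to 84.8%). The narrower stretch from 250 bp upstream to the start held all 11 summits of these genes. It held 54.1% of the promoter peaks in iKO, 57.5% in siSeh1 and 69.6% in siSCR.

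Promoter summits of several Chd4 lists were present at Hes1, Olig1 and Id2, 2 to 25 bp apart. At Hes1 the iKO summit (chromosome 16, 30065173) was 12 bp from the siSeh1 summit (30065161). At Olig1 these summits were also 12 bp apart, at 91269680 and 91269668 on chromosome 16. At Id2 the iKO summit (chromosome 12, 25096176) was 2 bp from that of siSCR (25096178), and the siSeh1 summit (25096201) was 25 bp from the first and 23 bp from the second. These 5 pairs were the whole set of peaks of different lists that lay within 240 bp of each other at the 10 genes. Such closeness was usual in these lists. Of 684 protein-coding genes with a promoter peak in both iKO and siSeh1, 94.2% had summits within 240 bp (92.1 to 95.8%) and 26.0% within 25 bp (22.8 to 29.5%). The median distance was 52 bp for these genes, 42 bp for the 231 genes shared by iKO and siSCR and 40 bp for the 286 shared by siSeh1 and siSCR.

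**Figure D3:**
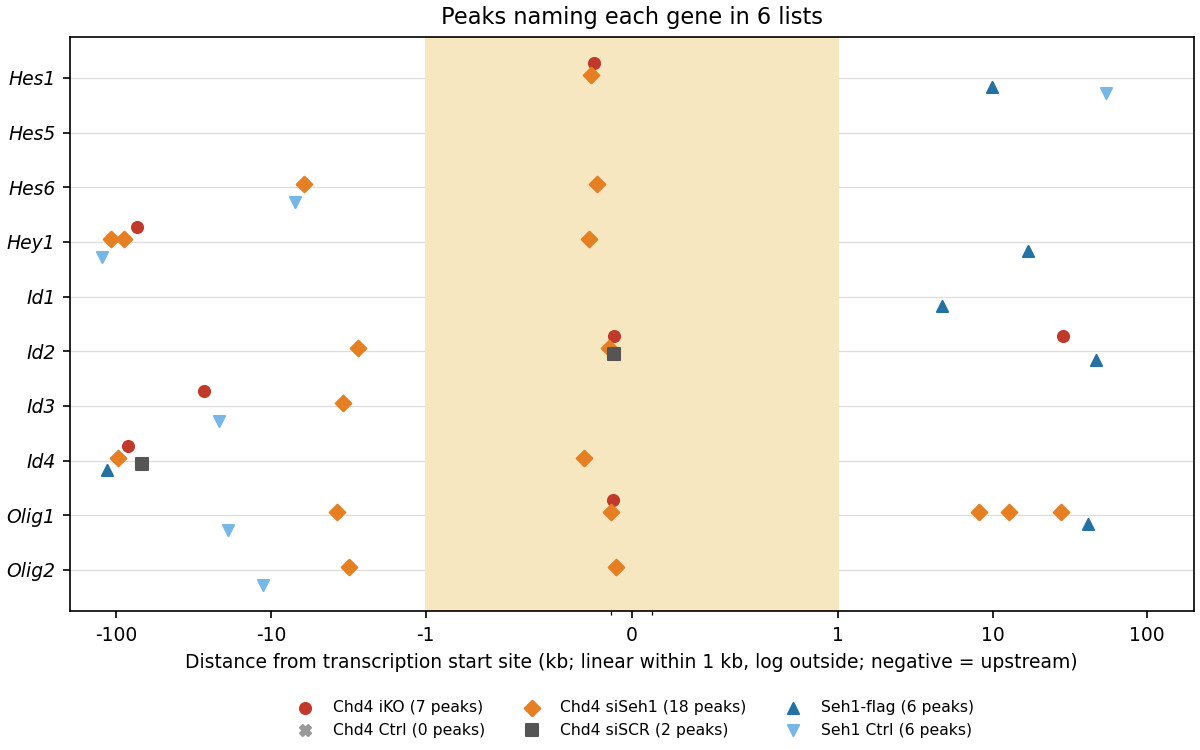
Every peak that named 1 of the 10 genes, by distance from its start (x axis in kb, linear within 1 kb and log outside, negative upstream), with colour and symbol for the list. The shaded band is the promoter window, which holds Chd4 peaks and no Seh1 peak, and Chd4 Ctrl has 0 peaks at these genes.

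Hes1, the Notch effector that oscillates in progenitors, had a promoter peak in iKO and siSeh1 and none in Ctrl or siSCR. The iKO peak had a deposited score of 3.46 and was ranked 9684 of 21294 (45.5% from the top), as 1 of 155 peaks with that score. The siSeh1 peak had a score of 17.3 and was ranked 134 of 26935 (0.497% from the top). The scale of the score is not stated, so only places within a list are read. The gene thus stood in the middle of the iKO list and near the top of the siSeh1 list. Among promoter peaks alone it stood at 74.8% from the top in iKO and 3.84% in siSeh1. The nearest siSCR peak lay 181213 bp from the start and the nearest Ctrl peak 3583543 bp. Seh1-flag named Hes1 with an intergenic peak 9986 bp beyond the start, and Seh1 Ctrl with one at 54515 bp.

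Hes6 had a promoter peak in siSeh1 alone, at 91413389 on chromosome 1, with a score of 8.29 (rank 758, 2.81% from the top). It lay 167 bp upstream of the start of a shorter transcript (91413222), inside the RefSeq span of the gene (91411483 to 91414038). A further siSeh1 peak lay 6118 bp upstream, in intron 21 of 22 of the neighbour Per2, a circadian clock gene. There the Seh1 Ctrl peak was also close by, in intron 20, and its centre was 869 bp from that of siSeh1. This was the closest approach of a Seh1 and a Chd4 peak at any of the 10 genes.

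Hey1, a Notch effector related to the Hes genes, had a siSeh1 promoter peak at 8667245 on chromosome 3, 207 bp upstream. Its score of 3.41 was ranked 13203 (49.0% from the top), in the middle of the list, and at 79.8% among promoter peaks alone. The other Hey1 peaks lay 73442 bp upstream in iKO, 89013 and 107616 bp upstream in siSeh1, 124669 bp upstream in Seh1 Ctrl and 17027 bp downstream in Seh1-flag.

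Hes5, the other main Notch effector of cortical progenitors, was named by no peak in any of the 6 lists. By position, the nearest peak to the start of its RefSeq span (chromosome 4, 154960626) was 17403 bp away in iKO, in an intron of Pank4, and 42009 bp away in siSeh1, in an intron of Plch2. Hes1, which acts in parallel with Hes5, was listed at the promoter in iKO and siSeh1. Any peak named 36.8% of protein-coding genes in iKO and 46.4% in siSeh1, so the absence of 1 gene is no result about Hes5.

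Among the Id genes, which encode inhibitors of E proteins, Id2 had a Chd4 promoter peak in 3 lists and was the single gene of the 10 listed at the promoter in a control library. Its score was 5.70 in iKO (rank 838, 3.94% from the top), 17.8 in siSeh1 (rank 116, 0.431%) and 9.32 in siSCR (rank 58 of 2606, 2.23%). It thus stood in the upper 4% of each of these lists, and siSeh1 placed it above the other 9 genes. Promoter peaks had higher median scores than the whole lists. Among promoter peaks alone Id2 stood at 32.9% from the top in iKO, 3.27% in siSeh1 and 7.42% in siSCR. Over all protein-coding genes, 1.01% had a promoter peak in these 3 lists together. A second siSeh1 peak lay 2741 bp upstream in a CpG island, and a second iKO peak 28388 bp downstream. The Seh1-flag peak nearest to Id2 was 46878 bp downstream, in intron 28 of 31 of Kidins220, within a LINE element.

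Id4, which marks slowly dividing stem cells and astrocytes, had a promoter peak in siSeh1 with a score of 5.66 (rank 1664, 6.18% from the top). In iKO and siSCR its peaks lay far upstream, at 84410 and 67870 bp. These, a further siSeh1 peak at 97600 bp and the Seh1-flag peak at 114589 bp all lay in intron 1 of 2 of the noncoding gene A330033J07Rik. The 4 distal peaks were at different places, none within 1000 bp of another.

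Id3 and Id1 had no promoter peak in any list. At Id3 the siSeh1 peak lay 3399 bp upstream with a score of 4.33, and the iKO peak 26986 bp and the Seh1 Ctrl peak 21685 bp upstream. The iKO and Seh1 Ctrl peaks fell in SINE elements, at different positions 5301 bp apart. Id1 was named by a single peak, from Seh1-flag, 4684 bp downstream with a score of 4.45. The nearest Chd4 peaks to Id1 were 95262 bp away in iKO and 61408 bp away in siSeh1, and both named Bcl2l1.

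**Figure D4:**
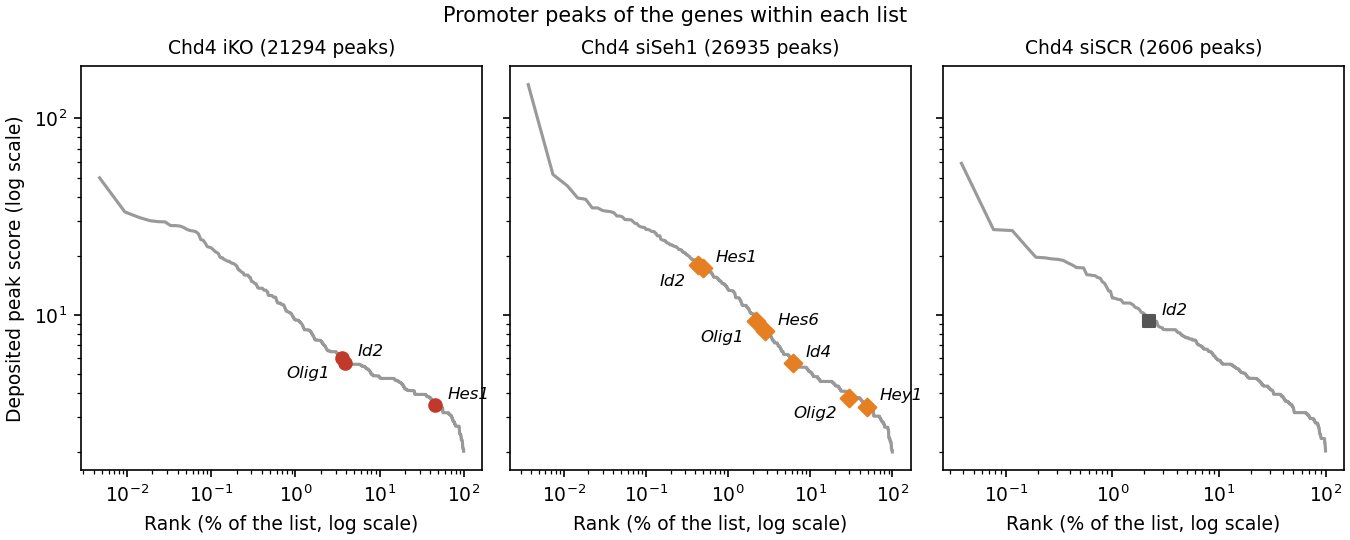
Deposited peak score against rank as a percentage of the list (both log scales) for all peaks of 3 Chd4 lists (grey lines), with the promoter peaks of the genes marked. Id2 and Hes1 lie in the first 0.5% of the siSeh1 list, while Hes1 in iKO and Hey1 in siSeh1 lie near the middle. Among promoter peaks alone their ranks were lower.

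The Olig genes stand side by side on chromosome 16, their starts 44219 bp apart. Olig1, which promotes oligodendrocyte maturation, had a promoter peak in iKO with a score of 6.05 (rank 764, 3.59% from the top) and in siSeh1 with 9.31 (rank 599, 2.22%). Of the promoter peaks of the 10 genes, it had the highest score in iKO. Among all promoter peaks Olig1 stood at 31.4% from the top in iKO and 18.2% in siSeh1. Ctrl and siSCR had no peak over the pair: the nearest to Olig2 was 288629 bp away in Ctrl, and the nearest to Olig1 was 875435 bp away in siSCR. Olig2, the factor that starts the oligodendrocyte programme, had a promoter peak in siSeh1 with a score of 3.79. That peak was ranked 8027 (29.8% from the top) and shared its score with 2615 peaks of the list, itself included, so its place is loosely fixed.

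The siSeh1 list held 7 peaks over the pair, from 3129 bp upstream of the Olig2 start to 27686 bp beyond the Olig1 start. Most of them were weak. The peak 3129 bp upstream of Olig2 had a score of 2.36 (90.3% from the top). Flanking peaks of Olig1 lay 3716 bp upstream (3.79, 29.8%) and 8195 (3.05, 59.4%), 12705 (2.06, 97.7%) and 27686 bp downstream (3.05, 59.4%, in a satellite repeat). Each of these, like the Olig2 promoter peak, was ranked 8027 or lower, outside the first 2606 peaks. The iKO list held 1 peak over the pair, at the Olig1 promoter. Olig1 was named by 5 siSeh1 peaks, and 8.51% of the 10034 protein-coding symbols in that list were named by as many or more. Seh1 peaks lay elsewhere, at 11256 bp upstream of Olig2 and 18940 bp upstream of Olig1 in Seh1 Ctrl and 41454 bp downstream of Olig1 in Seh1-flag.

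**Figure D5:**
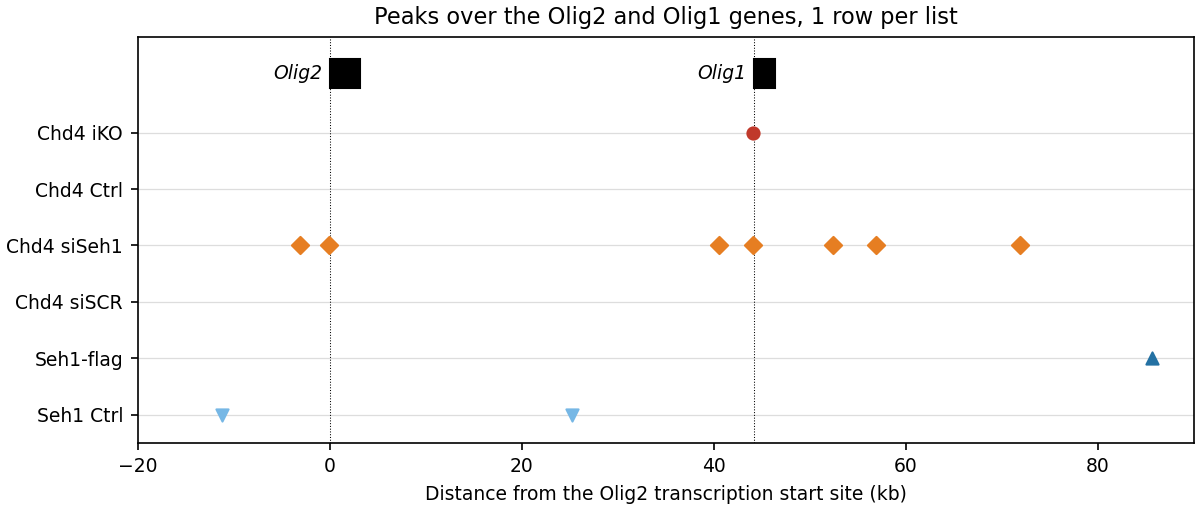
Peaks of the 6 lists over Olig2 and Olig1 (black boxes, RefSeq spans), by distance from the Olig2 start in kb, 1 row per list. Chd4 siSeh1 has 7 peaks and Chd4 iKO 1, Chd4 Ctrl and Chd4 siSCR have 0, and no Seh1 peak stands at a start. Of the 7, the Olig1 promoter peak alone is among the first 2606 of the siSeh1 list by score.

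Deletion and silencing were each set against their own control. In iKO against Ctrl, Chd4 was gained at the promoters of Hes1, Id2 and Olig1, 3 of 10, where 5.18% of protein-coding genes were gained. A gene was gained when the promoter peak was listed in iKO or siSeh1 and not in the control. The iKO and Ctrl libraries differed both in genotype and in 4-OH-TAM in the medium. These differences cannot be told apart. The Ctrl list had promoter peaks at only 4 protein-coding genes, none of them listed in iKO. Gained against Ctrl was therefore the same as listed in iKO, 1134 genes either way, and the comparison adds nothing to that count. In siSeh1 against siSCR, Chd4 was gained at Hes1, Hes6, Hey1, Id4, Olig1 and Olig2, 6 of 10, where 10.5% were gained. None of the 10 was lost in either comparison, beside 0.0183% and 0.297% of protein-coding genes. Hes1 and Olig1 were gained in both, 2 of 10 beside 2.17%. Hes6, Hey1, Id4 and Olig2 had a promoter peak in siSeh1 and none in iKO, a difference that was not tested. When siSCR took the place of Ctrl as the control of iKO, Id2 was no longer gained and Hes1 and Olig1 were.

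The longer lists gave more room for a gene to be named. Cut to its 1154 peaks of highest score, the length of the Ctrl list, the iKO list kept promoter peaks at Id2 and Olig1 and lost Hes1, which left 2 of 10 genes beside 2.04% of protein-coding genes. The siSeh1 list at that length had them at Hes1, Hes6, Id2 and Olig1, 4 of 10 beside 4.04%, and 3 of 10 were gained against siSCR beside 2.9%. At the 2606 peaks of siSCR it also had Id4, 5 of 10 beside 5.96%, and 4 of 10 were gained beside 4.7%. The promoter peaks of Olig2 and Hey1 were present in the full siSeh1 list and in neither shortened one.

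Peaks at any distance named 6 of them in iKO (36.8% of protein-coding genes), 0 in Ctrl (2.67%), 8 in siSeh1 (46.4%) and 2 in siSCR (7.47%). Seh1-flag named 6 (38.9%) and Seh1 Ctrl 6 (34.1%). Of the 39 peaks, 11 lay within 1 kb of the start, 5 between 1 and 5 kb, 14 between 5 and 50 kb and 9 farther out. The closest of the 28 flanking peaks was 2741 bp away. By annotation 11 were promoter peaks, 21 intergenic and 7 intronic, and 0 lay in an exon, UTR or transcription end site. Those classes held 4.09% of all peaks in iKO, 1.82% in Ctrl, 4.41% in siSeh1, 3.57% in siSCR, 2.18% in Seh1-flag and 3.07% in Seh1 Ctrl, so 0 of 39 is near the background.

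The 12 Seh1 peaks lay 4684 bp or more from a start, and 0 of the 12 were within 240 bp of a Chd4 peak. Over the whole Seh1 lists 1.95% of peaks were (894 of 45794, 1.83 to 2.08%), so a count of 0 among 12 is near the background. The Seh1-flag and Seh1 Ctrl lists both named Hes1, Hey1 and Olig1, with peaks at different places.

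The genes around them in the same pathways were looked up from a list of 48. In iKO 5 of 48 had a Chd4 promoter peak (10.4%), in Ctrl 0, in siSeh1 5 (10.4%) and in siSCR 1 (2.08%). Over all protein-coding genes the shares were 5.18% in iKO, 0.0183% in Ctrl, 11.8% in siSeh1 and 1.63% in siSCR. The siSeh1 and siSCR shares are near this background. The iKO share is larger but rests on 5 genes, was not tested, and is not read as a difference. Numb, which antagonises Notch in dividing progenitors, had one in iKO (score 7.32, 2.01% from the top), siSeh1 (15.5, 0.668%) and siSCR (5.60, 10.9%), the same 3 lists as Id2. Mib1, the ubiquitin ligase that activates Notch ligands, had one in iKO (4.74) and siSeh1 (2.96). Notch2 (2.71) and the coactivator gene Maml2 (3.63, in an exon) were listed in iKO, as was Olig3 (4.58, in its single exon).

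In siSeh1 Tcf3, an E protein that Id proteins bind, had a promoter peak with a score of 6.28, and the glial factors Sox8 and Sox10 (the second in an exon) ones of 5.41 and 4.85. Of the 12 genes of BMP signalling, 6 proneural factors and 5 further Hes and Hey genes, 0 had a Chd4 promoter peak in any list. Beside the background shares above, 0 among so few genes is no result. Hes7 had a Seh1 Ctrl peak in intron 1 of 3, 288 bp beyond its start. Ligands and receptors other than Notch2, among them Dll1, Jag1 and Notch1, had none in a Chd4 list.

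The genes whose promoter ranks were most like those of Hes1 over iKO and siSeh1 were B3gntl1, Maea and Hnrnpul2, among 461 other protein-coding genes with promoter peaks in these 2 lists and no other. Their mean differences from Hes1 in rank were 0.0167, 0.0186 and 0.202 percentage points. In iKO these genes were tied with Hes1 at 45.5% from the top, a score held by 155 peaks, so the differences came from siSeh1 alone. For Olig1, among the same 461, the most similar genes were Cat, Virma and Elavl1 (0.190, 0.249 and 0.330 points). For Id2 over 3 lists, among 209 genes, they were Tpcn1, Ift27 and Ciart (0.613, 0.729 and 0.850 points).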

How the data were processed

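The authors deposited 1 peak list per library, annotated with HOMER on build mm10, per the file headers. The submitters' processing notes list Bowtie2 and HOMER with no version, and human builds in place of mm10. How peaks were called, at which threshold, against which input and with what pooling was not given in those sources. The deposited peak score has no stated scale, and every score in Seh1 Ctrl is 0. The other 5 lists give single positions (summits). No depth is given. Distances and nearest genes are those deposited.

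Peaks were selected by gene symbol. Ranks, promoter calls within 1 kb and intervals (Clopper-Pearson, 95%) were computed with Python 3.11.15, pandas 2.3.3, numpy 2.4.6 and scipy 1.17.1, and promoter calling was tested on simulated data. The background was 21900 protein-coding RefSeq genes, and at least 99.7% of gene identifiers per list matched RefSeq. Peaks of different lists counted as shared when centres lay within 240 bp. Pathway genes were named where a Chd4 list had a promoter peak, and the 3 genes of most similar rank were named for each gene with promoter peaks in several lists with scores. The genes and lists were chosen with earlier results of these data known. Alternatives changed the window, list length, score limit, annotation, control list and shared distance.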

Additional observations from a re-analysis of the deposited data

How the results depend on the processing

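Counts of genes with a promoter peak were within 1.5 times of those reported for windows of 500 bp, 2 kb and 5 kb, with the exception of Seh1-flag, where the 5 kb window added Id1 (1 against 0). Leaving out exon peaks, a minimum score of 5 and gene assignment from RefSeq starts likewise moved no count by more. The minimum score still left 2 genes in iKO in place of 3, and 5 in siSeh1 in place of 7. Hes1 in iKO and Olig2 and Hey1 in siSeh1 scored below 5. With lists cut to the shortest, siSeh1 had 4 of 10 genes in place of 7, beside 4.04% of protein-coding genes in place of 11.8%. Cut to siSCR, 4 were gained in place of 6 (4.7% of protein-coding genes in place of 10.5%). Cut to Ctrl, a setting chosen after the data were seen, 3 were gained (2.9%). Within 50 kb siSCR named 1 gene in place of 2, iKO and Seh1 Ctrl 4 each in place of 6, and Seh1-flag 5 in place of 6. In siSeh1 the count stayed at 8. Shares of all protein-coding genes were not computed at the score or 50 kb limit. Shared pairs numbered 5 at 100 bp and 6 at 1000 bp. Among promoter peaks alone, ranks fell lower. From the top, in iKO Olig1 stood at 31.4%, Id2 at 32.9% and Hes1 at 74.8%. In siSeh1 Id2 stood at 3.27%, Hes1 at 3.84%, Olig1 at 18.2%, Hes6 at 22.9%, Id4 at 41.7%, Olig2 at 68.5% and Hey1 at 79.8%. In siSCR Id2 stood at 7.42%. No paired analysis was possible because each group had 1 library. Unknown depth limits every absence.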
